A study of Homo sapiens with 6 samples.

Results

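The transcripts of glycolysis and of the hypoxia response were followed in T98G cells, an established human glioblastoma line, in 6 poly(A) RNA-seq libraries. The set holds 46 genes taken by symbol from a list of glycolytic genes and genes regulated by the hypoxia-inducible factors (HIF), out of 60483 gene ids in the tables. It has 23 glycolytic genes (sugar and lactate transporters, enzymes and regulatory kinases), 21 other HIF-regulated genes and the 2 HIF alpha subunits HIF1A and EPAS1. All 46 symbols were found once, and all 46 passed the filter on low counts. The groups were untreated cells that received no vector (NT), cells with a short hairpin against SRPK1 in the pLKO.1 plasmid (shSRPK1) and cells with full-length SRPK1 in the pcDNA3.1 plasmid (oeSRPK1), with 2 libraries each. SRPK1 itself is a kinase of serine/arginine-rich splicing factors. Transfection was transient and lipid-based, all cells were T98G grown in the same serum-containing medium, and the labels name no treatment with low oxygen or altered glucose. No library of cells with an empty or control vector was used here, so lipid, plasmid and construct cannot be told apart in a comparison with NT. The labels do not name separate cultures behind the libraries of a group, so each p-value weighs a spread that may be partly technical.

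As background, glycolysis splits glucose into pyruvate, and lactate dehydrogenase then turns pyruvate into lactate, which leaves the cell through a carrier. HIF is a pair of an oxygen-sensitive alpha subunit and a stable partner. With enough oxygen, the prolyl hydroxylases of the EGLN family mark the alpha subunit for the VHL ubiquitin ligase, and with little oxygen the alpha subunit persists and binds DNA at a short core. Its known targets include most glycolytic genes, collagen-modifying enzymes, carbonic anhydrases and mitophagy receptors. Solid glioblastomas often have oxygen-poor areas and high glucose use.

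The DNA core bound by HIF is ACGTG or GCGTG, and the RefSeq promoter windows of the members (GRCh38.p14) were searched for both, on both strands, in the 250 bases before the start site. CACGTG, the E-box, holds ACGTG on both strands and is also read by other factors. Windows existed for 42 of the 46 genes. ACGTG was found for 26 of these 42 genes (61.9%), beside 21.7% of all 27303 genes of the promoter table and 28.8% of the 10718 genes that also passed the count filter. The E-box was found for 10 of 42 (23.8%), beside 7.73% of all genes and 11.1% of tested genes. Either core was present for 37 of 42 (88.1%), beside 47.4% and 64.7%. Counted per window, ACGTG was in 40.3% of the 72 member windows, 18.5% of all windows and 22.1% of those of tested genes. For GCGTG the shares of windows were 40.3%, 32.2% and 43.2% in that order. The members' windows were also richer in CG, with a median of 23.5 CG pairs per window against 11 in all windows and 20 in those of tested genes, and many members have several windows. A match is a description of letters, not a bound site. Shown here are windows of PLOD2, which was called higher in shSRPK1, of HK2, which with BNIP3 had the most cores of any member window, and of VLDLR, which was called higher in oeSRPK1 and not in shSRPK1. Cores on either strand are in capitals, and the last base is next to the start site (chr3:146161185-146161434, minus strand; chr2:74834920-74835169, plus strand; chr9:2621537-2621786, plus strand).
PLOD2: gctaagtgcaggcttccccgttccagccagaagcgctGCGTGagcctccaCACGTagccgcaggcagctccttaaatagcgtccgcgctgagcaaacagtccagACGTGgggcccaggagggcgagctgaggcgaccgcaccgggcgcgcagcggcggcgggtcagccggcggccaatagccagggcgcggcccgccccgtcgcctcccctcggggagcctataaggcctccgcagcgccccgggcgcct
HK2: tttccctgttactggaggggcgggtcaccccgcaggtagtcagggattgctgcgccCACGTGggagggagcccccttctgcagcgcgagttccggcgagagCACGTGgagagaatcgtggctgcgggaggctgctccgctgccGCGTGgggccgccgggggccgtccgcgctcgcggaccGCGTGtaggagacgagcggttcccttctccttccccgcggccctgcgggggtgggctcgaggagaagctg
VLDLR: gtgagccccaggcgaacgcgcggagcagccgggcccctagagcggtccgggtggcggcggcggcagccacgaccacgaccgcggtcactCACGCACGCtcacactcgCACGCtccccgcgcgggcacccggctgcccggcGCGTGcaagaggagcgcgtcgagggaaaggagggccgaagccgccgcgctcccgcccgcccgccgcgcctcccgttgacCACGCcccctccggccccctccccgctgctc
PLOD2 had 3 matches and HK2 had 6, counting each strand of its E-boxes, while the 5 matches of VLDLR were all GCGTG.

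For 6 further members called higher in at least 1 comparison, the stretch around the ACGTG core nearest to the start site is shown, 10 bases on either side, with the core in capitals (BHLHE40 chr3:4979278-4979302, plus strand; ANKRD37 chr4:185396688-185396712, plus strand; CA9 chr9:35673900-35673924, plus strand; PGK1 chrX:78104055-78104079, plus strand; P4HA1 chr10:73096938-73096962, minus strand; LDHA chr11:18394480-18394504, plus strand).
BHLHE40: cagggtagaaCACGTagctccaacc
ANKRD37: gtgtttgtgtACGTGcggccgtggc
CA9: gtttccaatgCACGTacagcccgta
PGK1: acggaagccgCACGTctcactagta
P4HA1: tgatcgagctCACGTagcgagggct
LDHA: tgggttcccgCACGTccgccggccc
The core began 18 bases before the start site in CA9, 73 in LDHA, 86 in P4HA1, 143 in ANKRD37, 149 in BHLHE40 and 183 in PGK1. These 6 are examples, and not all members called higher had this core. ADM, PLOD1, KDM3A and ENO1, also called higher, had GCGTG but no ACGTG, and P4HA2 had neither. GPI, BNIP3, ERO1A, SLC16A3 and MXI1 had ACGTG in at least 1 window.

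Reads counted in genes ranged from 3891549 in oeSRPK1 2 to 22691215 in oeSRPK1 1. Levels are given as CPM, read counts scaled to a common library size after TMM normalisation, which corrects for differences in library make-up, and each pair of values is replicate 1 and replicate 2. SRPK1 had 153 and 140.4 CPM for NT, 113 and 140.1 for shSRPK1 and 190.3 and 168 for oeSRPK1. It was called by edgeR only between the transfected groups, and shSRPK1 2 lay next to NT 2, so that the direction of the knockdown rests on the label there (adjusted p for shSRPK1 over NT, oeSRPK1 over NT and oeSRPK1 over shSRPK1 = 0.360, 0.175 and 0.0377). Of 9 markers of a glial tumour line, VIM and CD44 were high in every library (1741 CPM or more), while FABP7, S100B and SOX2 were at 0. GFAP had at most 0.0755 CPM, NES 0.765 to 1.89, OLIG2 0.777 to 3.28 and SOX9 86.8 to 265. Skeletal muscle transcripts (19 markers) summed to 69.1 and 71.4 CPM in NT, 75.8 and 81.6 in shSRPK1, 377 in oeSRPK1 1 and 3358 in oeSRPK1 2. TNNT1 alone made up 67.8 CPM of the sum for NT 1, 69.3 for NT 2, 73.9 for shSRPK1 1 and 65.7 for shSRPK1 2. It had 108 and 120 CPM in oeSRPK1, so the sums there came mostly from other markers. Each muscle marker other than TNNT1 had at most 0.529 CPM in NT 1, NT 2 and shSRPK1 1. MYH7, the highest of these others, had 5.83 CPM in shSRPK1 2, 108 in oeSRPK1 1 and 1268 in oeSRPK1 2. Of the 19, 10 were at 0 in each NT library, 8 and 5 in the shSRPK1 libraries and 2 in each oeSRPK1 library. Leukocyte, endothelial, epithelial and red cell markers summed to at most 0.861 CPM per list in each library. In bulk RNA, fewer cells of a kind and less RNA per cell cannot be told apart, here or in any level below.

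In both transfected groups more members rose than fell. In shSRPK1 against NT, 11 of the 46 rose and 1 fell, while 5.43% of the 14732 tested genes rose and 3.75% fell (9.18% in all). In oeSRPK1 against NT, 14 rose and 3 fell, beside 11.2% and 9.45% of tested genes (20.6% in all). Between oeSRPK1 and shSRPK1, 3 were higher and 7 lower in oeSRPK1, beside 11.5% and 11.3% (22.8% in all). Of the glycolytic genes, 22 of 23 had a positive log2 fold change in shSRPK1 and 3 were called, and 19 of 23 were positive in oeSRPK1 with 5 called higher and 1 lower. Of the 14732 tested genes, 7503 were positive in shSRPK1 and 7362 in oeSRPK1. Of the other HIF-regulated genes, 8 of 21 rose and 1 fell in shSRPK1, and 9 rose and 1 fell in oeSRPK1. In either direction, 13.0% of glycolytic genes were called in shSRPK1 and 26.1% in oeSRPK1, near the 9.18% and 20.6% of tested genes. For the other HIF-regulated genes these shares were 42.9% and 47.6%. The nearness of the glycolytic shares to those of all genes depends on the threshold. At an unadjusted edgeR p under 0.05, 15 of 23 glycolytic and 15 of 21 other HIF-regulated genes passed in shSRPK1. In oeSRPK1 these counts were 10 and 16. Of the 14732 tested genes, 4237 passed in shSRPK1 and 5255 in oeSRPK1. A call is an adjusted p under 0.05 by edgeR's quasi-likelihood test with Benjamini-Hochberg adjustment over all tested genes, and all fold changes below are log2 values ± SE from that fit (n = 2 per group, 6 libraries).

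The median log2 fold change of the 46 members was 0.82 in shSRPK1 and 0.66 in oeSRPK1 against NT, and -0.23 in oeSRPK1 against shSRPK1, where the medians of all tested genes were 0.01, -0.0007 and -0.0020. The glycolytic medians were 0.80, 0.48 and -0.25, and those of the other HIF-regulated genes 0.97, 0.80 and 0.01. Both shSRPK1 libraries were above both NT libraries for 31 of 46 members and below for 4 (28.8% and 28.7% of tested genes), and both oeSRPK1 libraries were above for 37 and below for 6 (35.9% and 34.6% of tested genes). Both comparisons used the same NT libraries, so they are not independent of each other. In the heat map of levels relative to NT, shSRPK1 1 is the darkest column, shSRPK1 2 is paler, and the oeSRPK1 columns resemble each other.

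**Figure D1:**
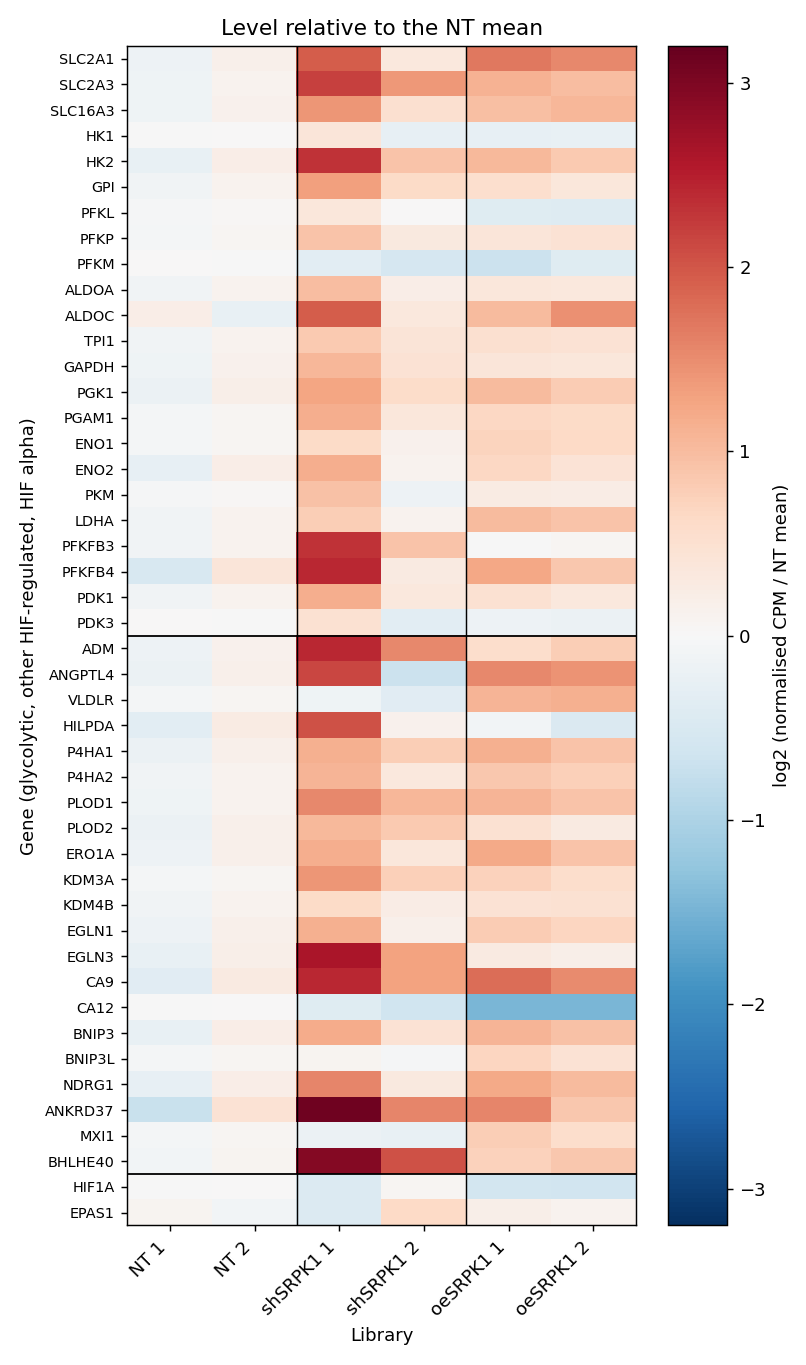
Log2 ratio of normalised CPM to the NT mean for each of the 46 genes (rows, with lines between glycolytic, other HIF-regulated and HIF alpha genes) in each of the 6 libraries (columns). Most rows are red in shSRPK1 1 and in both oeSRPK1 libraries, CA12 is blue in all 4 transfected libraries, and ANKRD37 and BHLHE40 have the highest ratios, in shSRPK1 1.

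**Figure D2:**
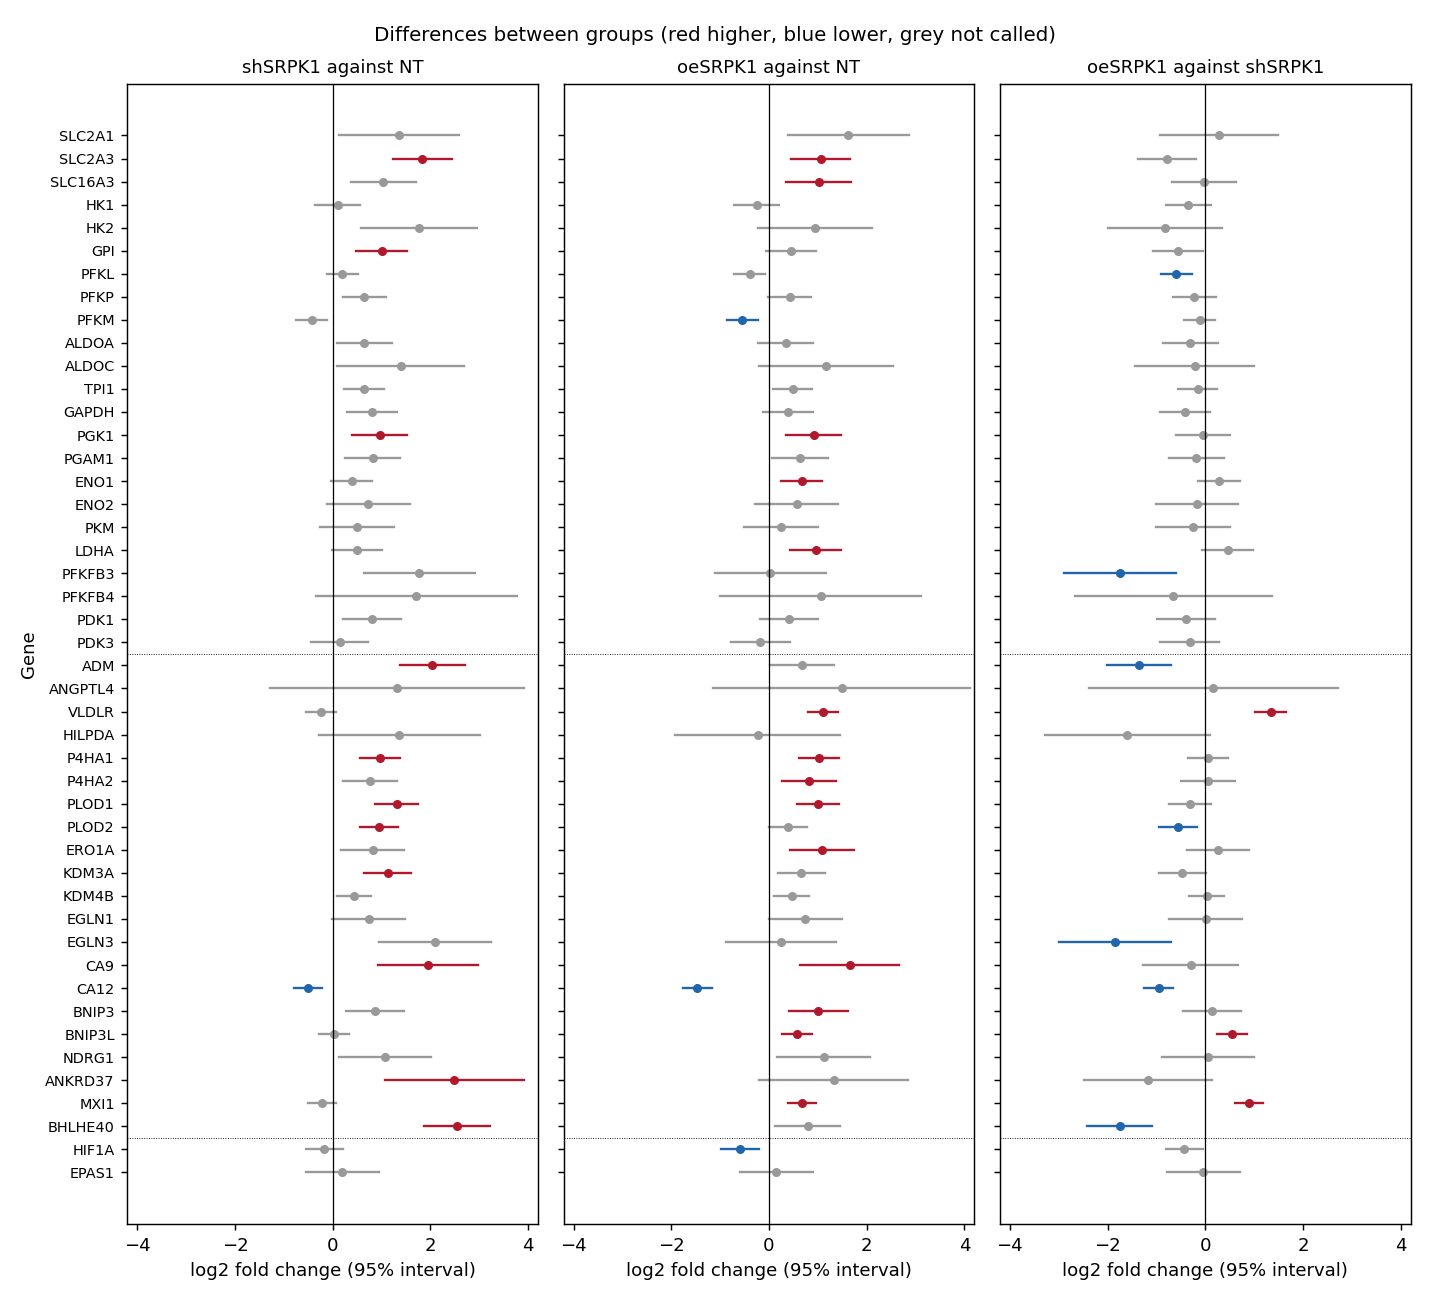
Log2 fold change of each gene with its 95% interval from edgeR's quasi-likelihood fit in the 3 comparisons, red where called higher, blue where called lower, grey where not called (n = 2 per group). 11 genes are red in shSRPK1 against NT, 14 in oeSRPK1 against NT and 3 in oeSRPK1 against shSRPK1.

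The counts moved with the libraries in the edgeR fit, and so did the shares of all tested genes called. For shSRPK1 over NT, no member was called without NT 1 or without NT 2. The median log2 fold change of the members was 0.68 and 0.99 there, against 0.82 in the fit of all 6. Higher calls numbered 22 without shSRPK1 1, 38 without shSRPK1 2, and 3 without oeSRPK1 1 or oeSRPK1 2. Of all tested genes, 13.9%, 14.9%, 1.06% and 1.11% were called higher in those 4 fits, and 0.151% and 0.296% without NT 1 or NT 2, against 5.43% in the fit of all 6. For oeSRPK1 over NT, higher calls numbered 1 without NT 1 or NT 2, 33 without shSRPK1 1, 34 without shSRPK1 2 and 3 without oeSRPK1 2. Without oeSRPK1 1 edgeR called no member higher, and the median log2 fold change of the members was 0.55, against 0.66 in the fit of all 6. The shares of all tested genes called higher were 1.36% and 1.82% without NT 1 or NT 2, 20.2% and 19.3% without shSRPK1 1 or shSRPK1 2, and 1.48% and 3.94% without oeSRPK1 1 or oeSRPK1 2, against 11.2% in the fit of all 6. With only the NT and oeSRPK1 libraries fitted, 34 members were called higher and 5 lower, where 21.6% of all tested genes were called higher. With only the NT and shSRPK1 libraries, 1 was called higher (0.623% of tested genes). For oeSRPK1 over shSRPK1, lower calls numbered 3 without NT 1 or NT 2, 10 without shSRPK1 1, 30 without shSRPK1 2 and 2 without oeSRPK1 2. Without oeSRPK1 1 edgeR called no member lower, and the median log2 fold change of the members was -0.31, against -0.23 in the fit of all 6. Of all tested genes, 4.99% and 4.97% were called lower without NT 1 or NT 2, 19.4% and 20.9% without shSRPK1 1 or shSRPK1 2, and 0.251% and 2.90% without oeSRPK1 1 or oeSRPK1 2, against 11.3% in the fit of all 6. Higher calls in that comparison went from 3 to 14 without shSRPK1 1 and to 1 without oeSRPK1 1, where 16.7% and 0.701% of all tested genes were called higher, against 11.5%. CA12 in oeSRPK1 over NT and VLDLR in oeSRPK1 over shSRPK1 were the 2 calls kept in all of these fits.

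The libraries of shSRPK1 stood apart from each other in these genes. Of the 46 members, 44 were higher in shSRPK1 1 than in shSRPK1 2, including all 23 glycolytic and all 21 other HIF-regulated genes, while HIF1A and EPAS1 were lower. All tested genes were split evenly, with 49.2% higher in shSRPK1 1. The gap was over 1.5-fold for 33 members (71.7%), against 18.4% of all tested genes. The largest ratios of shSRPK1 1 to shSRPK1 2 were 6.99 for the lipase inhibitor ANGPTL4, 4.36 for PFKFB4, 3.69 for the lipid droplet protein HILPDA and 3.01 for the glucose carrier SLC2A1, after addition of 0.5 CPM. The smallest among the 44 were 1.04 for MXI1 and 1.08 for BNIP3L.

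In NT, 42 of the 46 members were lower in NT 1 than in NT 2, with a median ratio of 0.852, and 4 differed by over 1.5-fold. Of all tested genes, 49.3% were higher in NT 1 and 4.15% differed by over 1.5-fold. In oeSRPK1, 36 of the 46 members were higher in oeSRPK1 1, with a median ratio of 1.07, and 1 differed by over 1.5-fold. There, 50.1% of all tested genes were higher in oeSRPK1 1 and 7.85% differed by over 1.5-fold. In the plot of replicate ratios, 23 of the 46 members lay above the band of all genes and 1, EPAS1, below it in shSRPK1. In NT 0 lay above and 6 below, and in oeSRPK1 1 lay above and 0 below. Relative to the NT mean, the median member was 2.23-fold in shSRPK1 1, 1.26-fold in shSRPK1 2, 1.62-fold in oeSRPK1 1 and 1.499-fold in oeSRPK1 2. Above both NT libraries lay 40, 33, 38 and 37 members in that order, and 29, 7, 16 and 7 were over 2-fold above the NT mean. On the log2 scale, the median of all tested genes lay -0.001, 0.010, -0.005 and 0.018 from the NT mean. The shares of all tested genes for these counts are not given here. What made the shSRPK1 libraries differ was not tested.

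**Figure D3:**
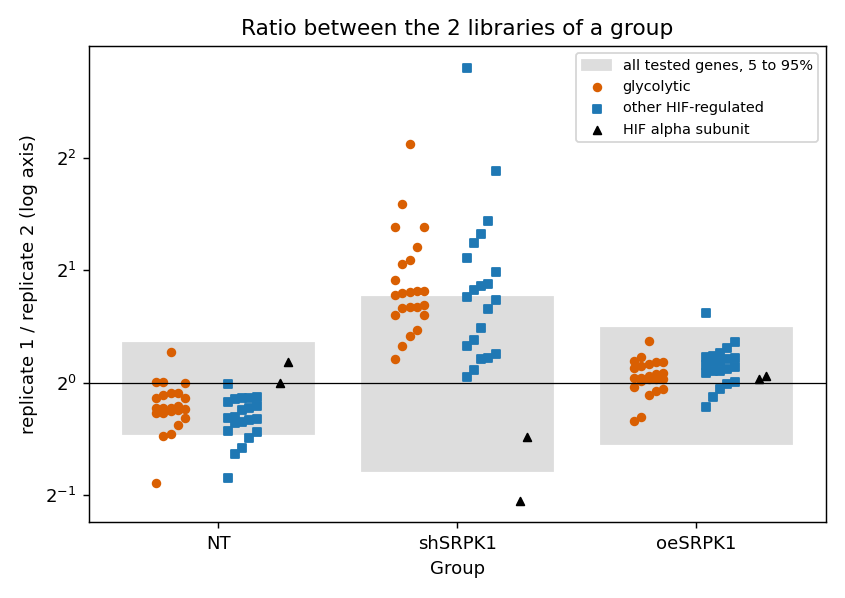
Ratio of replicate 1 to replicate 2 (normalised CPM plus 0.5, log axis) for each glycolytic, other HIF-regulated and HIF alpha gene in the 3 groups, over a grey band for the 5% to 95% range of all tested genes. In shSRPK1 the points reach 6.99 while the band ends at 1.70, and the HIF alpha genes lie under 1.

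In NT, 7 glycolytic enzymes were the most abundant members per kb of exon. GAPDH stood first at 2010.5 CPM per kb (NT mean), followed by ENO1 at 490.1, TPI1 at 436, ALDOA at 319.9, LDHA at 298, PKM at 296 and PGK1 at 270.3. The stress protein NDRG1 came next at 229, with the glucose carrier SLC2A1 after it at 116. At the other end, ALDOC had 0.258 and ANKRD37 0.553 CPM per kb. Level and length rest on GENCODE 29 exons, and 53.5% of the exonic bases of ALDOA, 38.5% of CA9 and 35.2% of ANKRD37 overlap another gene, so their levels are uncertain. GAPDH has 62 named pseudogenes and LDHA 6, which held at most 0.507% and 0.665% as many reads as the gene itself in any library, and reads that fit several places were not counted. Together the 46 genes took 2.39% and 2.83% of the normalised reads of the NT libraries, 5.55% and 3.35% of the shSRPK1 libraries and 4.18% and 3.90% of the oeSRPK1 libraries.

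The sugar and lactate carriers had 1 call in shSRPK1 and 2 in oeSRPK1, all higher. SLC2A1, the main glucose carrier of most tumour lines, had 489 and 609 CPM for NT, 2098 and 697 for shSRPK1 and 1777 and 1602 for oeSRPK1. Both groups lay above NT, with oeSRPK1 3.24 and 2.92 times the NT mean, but it was not called (1.35 ± 0.49, 1.62 ± 0.50 and 0.27 ± 0.49 for shSRPK1 over NT, oeSRPK1 over NT and oeSRPK1 over shSRPK1, edgeR adjusted p = 0.145, 0.0734 and 0.719). SLC2A3, a high-affinity glucose carrier, had 76.3 and 90.9 CPM for NT, 379.6 and 217 for shSRPK1 and 182 and 166 for oeSRPK1. It rose in both groups, by 1.84 ± 0.26 in shSRPK1 and 1.06 ± 0.25 in oeSRPK1 (edgeR adjusted p = 0.0118 and 0.0282), with no overlap with NT, and did not pass between them (-0.78 ± 0.25, adjusted p = 0.0647). The lactate exporter SLC16A3 had 194 and 235 CPM for NT, 574 and 305 for shSRPK1 and 417 and 450.1 for oeSRPK1, and rose in oeSRPK1 (1.01 ± 0.28, edgeR adjusted p = 0.0450). Its value in shSRPK1 was close in size but not called (1.03 ± 0.28, edgeR adjusted p = 0.0649).

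Of the enzymes from glucose to fructose bisphosphate, GPI rose in shSRPK1 and PFKM fell in oeSRPK1. HK2, the inducible hexokinase, had 98.2 and 135 CPM for NT, 577 and 220.0 for shSRPK1 and 239 and 209.9 for oeSRPK1. It was above NT in all 4 transfected libraries, yet shSRPK1 1 was 4.95 times and shSRPK1 2 1.89 times the NT mean, and none of the values 1.77 ± 0.47, 0.95 ± 0.46 and -0.83 ± 0.46 passed (edgeR adjusted p = 0.0793, 0.213 and 0.250 in the order above). HK1, the constitutive hexokinase, ranged from 170.2 to 269.9 CPM with no call. GPI, which converts glucose phosphate to fructose phosphate, had 376 and 441 CPM for NT, 1015 and 627 for shSRPK1 and 593 and 522 for oeSRPK1 and rose in shSRPK1 (1.01 ± 0.23, edgeR adjusted p = 0.0346), while in oeSRPK1 it was not called (0.45 ± 0.22, adjusted p = 0.192). The shSRPK1 libraries lay above all others for GPI.

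The phosphofructokinase subunits, which catalyse the committed step, differed among themselves. PFKM, the muscle-type subunit, had 98.2 and 97.7 CPM for NT, 78.01 and 67.4 for shSRPK1 and 60.5 and 74.97 for oeSRPK1, lower in every transfected library than in NT, and was called in oeSRPK1 (-0.55 ± 0.14, edgeR adjusted p = 0.0295) but not in shSRPK1 (-0.43 ± 0.14, adjusted p = 0.0881). PFKM and the muscle markers were both higher in oeSRPK1 2 than in oeSRPK1 1, and the part of muscle transcripts in its level was not tested. PFKL, the liver-type subunit, had 259.7 and 277 CPM for NT, 342 and 273 for shSRPK1 and 207 and 201 for oeSRPK1, and was called lower in oeSRPK1 than shSRPK1 (-0.59 ± 0.14, edgeR adjusted p = 0.0221), with no call against NT. PFKP, the platelet-type subunit, was above NT in all 4 transfected libraries without a call (0.64 ± 0.19 and 0.42 ± 0.19, edgeR adjusted p = 0.0724 and 0.155).

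PFKFB3 and PFKFB4 make the fructose bisphosphate signal that activates phosphofructokinase. PFKFB3 had 72.0 and 85.0 CPM for NT, 388 and 148 for shSRPK1 and 78.3 and 82.5 for oeSRPK1. Its oeSRPK1 libraries lay within the NT range, while shSRPK1 lay above all others, and oeSRPK1 was called lower than shSRPK1 (-1.74 ± 0.45, edgeR adjusted p = 0.0487), although its value over NT in shSRPK1 was not called (1.77 ± 0.45, adjusted p = 0.0725). PFKFB4 had 28.7 and 54.0 CPM for NT, 221 and 50.3 for shSRPK1 and 97.0 and 74.97 for oeSRPK1, with shSRPK1 1 standing alone, and was not called in any of the 3 comparisons (1.71 ± 0.78, 1.06 ± 0.78 and -0.65 ± 0.76, edgeR adjusted p = 0.233, 0.396 and 0.578).

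Later in the pathway, PGK1 rose in both groups, and ENO1 and LDHA rose in oeSRPK1. PGK1, which makes ATP in the pathway, had 1297 and 1683 CPM for NT, 3575 and 2234 for shSRPK1 and 2991 and 2627 for oeSRPK1, 0.96 ± 0.24 in shSRPK1 and 0.91 ± 0.24 in oeSRPK1 (edgeR adjusted p = 0.0474 and 0.0334). ENO1, the main enolase, had 2463 and 2709 CPM for NT, 3932 and 2845 for shSRPK1 and 4223 and 3992 for oeSRPK1, and its rise was 0.67 ± 0.18 in oeSRPK1 (edgeR adjusted p = 0.0389) with 0.39 ± 0.18 in shSRPK1 (adjusted p = 0.205). LDHA, which makes lactate from pyruvate, had 1698 and 2004 CPM for NT, 3217 and 2010.5 for shSRPK1 and 3706 and 3496 for oeSRPK1. Its oeSRPK1 libraries were the highest of all 6, 2.00 and 1.89 times the NT mean (0.96 ± 0.23, edgeR adjusted p = 0.0231), while shSRPK1 2 was close to NT 2 and the group was not called (0.50 ± 0.23, adjusted p = 0.189). GAPDH, the most abundant member, had 5438 and 6549 CPM for NT, 12549 and 8278 for shSRPK1 and 7903 and 7746 for oeSRPK1, above NT in all 4 transfected libraries but not called (0.80 ± 0.22 and 0.38 ± 0.22, edgeR adjusted p = 0.0605 and 0.249).

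The remaining glycolytic members (ALDOA, ALDOC, TPI1, PGAM1, ENO2, PKM, PDK1 and PDK3) were not called in any comparison. Their log2 fold changes were 0.14 to 1.39 in shSRPK1 and -0.17 to 1.17 in oeSRPK1. PKM, pyruvate kinase, shows the shSRPK1 split, at 4869 CPM in shSRPK1 1 and 2283 in shSRPK1 2, above and below the NT values of 2455 and 2615. PDK1 and PDK3 phosphorylate and inhibit pyruvate dehydrogenase. PDK1 had 110.1 and 127 CPM for NT, 264 and 149.7 for shSRPK1 and 167 and 149 for oeSRPK1, and PDK3 between 11.2 and 20.0 CPM. ALDOC had few reads, 8 to 38 reads per library.

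**Figure D4:**
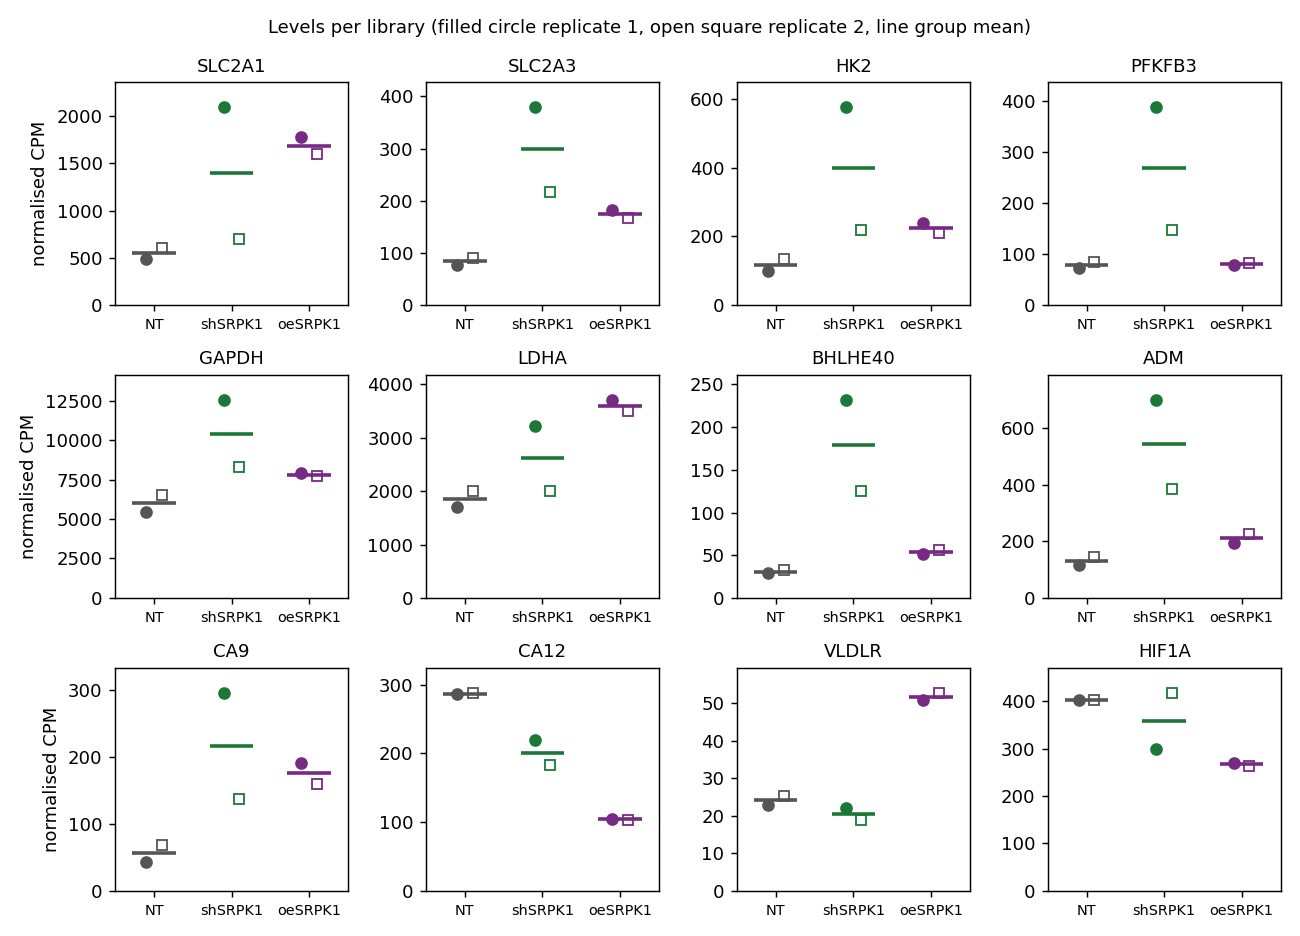
Normalised CPM per library of 12 members, on an axis from 0 (filled circle replicate 1, open square replicate 2, line the group mean, n = 2 per group). The squares of shSRPK1 lie far below its circles for SLC2A1, HK2 and PFKFB3, LDHA and VLDLR are highest in oeSRPK1, and CA12 is lowest there.

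Among the secreted and lipid-related HIF targets, ADM rose in shSRPK1 and VLDLR in oeSRPK1. ADM encodes adrenomedullin, a vasodilator peptide, and had 118 and 146 CPM for NT, 698 and 385 for shSRPK1 and 195 and 227 for oeSRPK1. Both shSRPK1 libraries lay above all others, at a fitted 4.11 times NT with a 95% interval from 2.58 to 6.53 (2.04 ± 0.28, edgeR adjusted p = 0.0118), and oeSRPK1 was lower than shSRPK1 (-1.36 ± 0.28, adjusted p = 0.0169). VLDLR, a lipoprotein receptor, had 22.9 and 25.3 CPM for NT, 22.0 and 18.8 for shSRPK1 and 50.8 and 52.7 for oeSRPK1, with both oeSRPK1 libraries above the remaining 4. The fitted oeSRPK1 level was 2.14 times NT, with a 95% interval of 1.73 to 2.65 (1.10 ± 0.13, edgeR adjusted p = 0.00228) and 2.53 times that of shSRPK1 (1.34 ± 0.14, adjusted p = 0.00176), with -0.24 ± 0.14 in shSRPK1 against NT (adjusted p = 0.284). ANGPTL4 had 39.0 and 50.4 CPM for NT, 196 and 27.5 for shSRPK1 and 129 and 122 for oeSRPK1. HILPDA had 26.9 and 40.6 CPM for NT, 137 and 36.8 for shSRPK1 and 31.8 and 24.6 for oeSRPK1. Neither was called, and for both shSRPK1 1 was the highest library of all while shSRPK1 2 was at or under the higher NT library.

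Of the 5 collagen-processing genes, 3 rose in shSRPK1 and 4 in oeSRPK1. P4HA1, a catalytic subunit of the collagen prolyl hydroxylase, had 289 and 368 CPM for NT, 718 and 571 for shSRPK1 and 719 and 614 for oeSRPK1, and rose by 0.97 ± 0.18 in shSRPK1 and 1.02 ± 0.18 in oeSRPK1 (edgeR adjusted p = 0.0203 and 0.00801). PLOD1, a lysyl hydroxylase, had 486 and 577 CPM for NT, 1540.0 and 1101 for shSRPK1 and 1125 and 1008 for oeSRPK1 and also rose in both (1.31 ± 0.19 and 1.005 ± 0.19, edgeR adjusted p = 0.0102 and 0.0106). No shSRPK1 or oeSRPK1 library of these genes overlapped NT. PLOD2, which hydroxylates the collagen ends, had 687 and 868 CPM for NT, 1606 and 1390.4 for shSRPK1 and 1083 and 952 for oeSRPK1, rose in shSRPK1 (0.95 ± 0.17, edgeR adjusted p = 0.0190) and was lower in oeSRPK1 than there (-0.56 ± 0.17, adjusted p = 0.0469). P4HA2 had 218 and 255 CPM for NT, 505 and 297 for shSRPK1 and 433 and 404 for oeSRPK1, and the disulphide oxidase ERO1A 131 and 164 CPM for NT, 333 and 188 for shSRPK1 and 344 and 278 for oeSRPK1. Both rose in oeSRPK1 (0.82 ± 0.24 and 1.08 ± 0.27, edgeR adjusted p = 0.0466 and 0.0347), with positive values in shSRPK1 that were not called (0.76 ± 0.24 and 0.82 ± 0.27, adjusted p = 0.0848 and 0.105).

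Of the 4 histone demethylases and HIF prolyl hydroxylases, which need oxygen and are themselves HIF targets, KDM3A rose in shSRPK1 and EGLN3 separated the transfected groups. KDM3A, a histone demethylase, had 74.2 and 80.9 CPM for NT, 207 and 131 for shSRPK1 and 130.1 and 115 for oeSRPK1 (1.13 ± 0.21 in shSRPK1, edgeR adjusted p = 0.0211), and its oeSRPK1 value of 0.66 ± 0.21 was not called (adjusted p = 0.0592). EGLN3, a HIF prolyl hydroxylase strongly induced by HIF, had 42.6 and 57.5 CPM for NT, 306 and 122 for shSRPK1 and 61.5 and 57.1 for oeSRPK1. Its oeSRPK1 libraries lay at the level of NT 2 or just above it, and it was lower there than in shSRPK1 (-1.85 ± 0.45, edgeR adjusted p = 0.0415). The value of EGLN3 in shSRPK1 against NT, 2.10 ± 0.45, missed the threshold (edgeR adjusted p = 0.0516). EGLN1, the main hydroxylase in normal oxygen, and the demethylase KDM4B were not called, at 0.74 ± 0.31 and 0.44 ± 0.15 in shSRPK1 and 0.75 ± 0.31 and 0.47 ± 0.16 in oeSRPK1.

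The carbonic anhydrases, membrane enzymes that regulate pH outside the cell, moved in opposite directions. CA9, a standard marker of hypoxia, had 43.7 and 68.2 CPM for NT, 296 and 137 for shSRPK1 and 192 and 159.8 for oeSRPK1, and rose in both groups (1.95 ± 0.41 and 1.65 ± 0.41, edgeR adjusted p = 0.0439 and 0.0413). Its level was 3.87 times that of NT in shSRPK1 (95% interval 1.91 to 7.82) and 3.14 times in oeSRPK1 (95% interval 1.56 to 6.34). With no filter on low counts, limma-voom, only the compared libraries or the replicate block, CA9 was not called in shSRPK1. Its log2 fold change there ranged from 1.29 to 2.40 over the 14 other fits. In oeSRPK1 its call was lost with no filter. CA12 had 286 and 288 CPM for NT, 219 and 183 for shSRPK1 and 104 and 104 for oeSRPK1, with the libraries of each group close together and no overlap between groups. It fell by 0.51 ± 0.12 in shSRPK1 and by 1.47 ± 0.13 in oeSRPK1 (edgeR adjusted p = 0.0425 and 0.000608), and oeSRPK1 lay below shSRPK1 (-0.95 ± 0.13, adjusted p = 0.00353). CA12 was the only member called in all 3 comparisons, and its call in oeSRPK1 against NT held in each of the 14 other fits run.

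The mitophagy receptors BNIP3 and BNIP3L, which mark mitochondria for removal, rose in oeSRPK1. BNIP3 had 185 and 251 CPM for NT, 495 and 298 for shSRPK1 and 460.1 and 417 for oeSRPK1 (1.01 ± 0.25 in oeSRPK1, edgeR adjusted p = 0.0323; 0.86 ± 0.25 in shSRPK1, adjusted p = 0.0769). BNIP3L had 291 and 321 CPM for NT, 324 and 299.6 for shSRPK1 and 492 and 417 for oeSRPK1, with shSRPK1 inside the NT range or just above it, and was higher in oeSRPK1 than in NT (0.57 ± 0.14, edgeR adjusted p = 0.0229) and than in shSRPK1 (0.55 ± 0.14, adjusted p = 0.0258). MXI1, an antagonist of MYC, had a like order, at 63.0 and 69.5 CPM for NT, 57.8 and 55.8 for shSRPK1 and 114 and 97.7 for oeSRPK1. It rose by 0.68 ± 0.12 in oeSRPK1 (edgeR adjusted p = 0.00906), was higher there than in shSRPK1 (0.90 ± 0.12, adjusted p = 0.00373), and had -0.22 ± 0.12 in shSRPK1 against NT (adjusted p = 0.269).

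The transcriptional repressor BHLHE40 had the largest rise of all members, in shSRPK1. It had 28.6 and 32.3 CPM for NT, 232 and 125 for shSRPK1 and 50.9 and 55.6 for oeSRPK1. Both shSRPK1 libraries were above all others, 7.61 and 4.12 times the NT mean (2.55 ± 0.28, edgeR adjusted p = 0.00753), and oeSRPK1 lay between (0.80 ± 0.28, adjusted p = 0.0905), lower than shSRPK1 (-1.75 ± 0.28, adjusted p = 0.00822). ANKRD37, a small ankyrin-repeat protein, rose in shSRPK1 on few reads, 9 and 28 for NT, 163 and 44 for shSRPK1 and 94 and 10 for oeSRPK1. That was 0.874 and 1.98 CPM for NT, 12.3 and 4.21 for shSRPK1 and 4.23 and 2.59 for oeSRPK1, highest in shSRPK1 1, with a fold change of 2.49 ± 0.60 (edgeR adjusted p = 0.0495). NDRG1, a stress-response gene, had 1869 and 2624 CPM for NT, 6630.2 and 2799 for shSRPK1 and 5237 and 4534 for oeSRPK1, above NT in all 4 transfected libraries, and was not called (1.07 ± 0.40 and 1.12 ± 0.40, edgeR adjusted p = 0.137 and 0.0940).

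Of the HIF alpha subunits, HIF1A fell in oeSRPK1 and EPAS1 was not called. HIF1A had 403 and 403 CPM for NT, 299 and 418 for shSRPK1 and 270.2 and 264 for oeSRPK1. Its NT libraries were nearly equal, shSRPK1 1 lay below and shSRPK1 2 above them, and both oeSRPK1 libraries were the lowest (-0.59 ± 0.17, edgeR adjusted p = 0.0397; -0.17 ± 0.16 in shSRPK1, adjusted p = 0.538). EPAS1, which encodes another alpha subunit, had 292 and 257 CPM for NT, 204 and 423 for shSRPK1 and 311 and 298 for oeSRPK1, with no call (0.19 ± 0.31, 0.15 ± 0.31 and -0.04 ± 0.31, edgeR adjusted p = 0.725, 0.763 and 0.943). In shSRPK1 2 EPAS1 was 1.54 times the NT mean and in shSRPK1 1 0.744 times, the reverse of the order of the other 44 genes. Transcript levels do not measure the alpha proteins, which are regulated by degradation.

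Within families, the share of each member was computed from CPM per kb, as a description (2 libraries against 2 allow no exact permutation p under 0.333). Of the summed HK1 and HK2 level, HK2 made up 33.2% and 40.6% for NT, 69.0% and 57.3% for shSRPK1 and 59.3% and 55.5% for oeSRPK1, so that HK1 led in NT and HK2 in every transfected library. Of CA9 and CA12, CA9 made up 40.1% and 50.9% for NT, 85.6% and 76.7% for shSRPK1 and 89.0% and 87.1% for oeSRPK1. EGLN3 made up 50.4% and 52.3% for NT, 74.6% and 70.0% for shSRPK1 and 42.8% and 43.0% for oeSRPK1 of its sum with EGLN1, higher in shSRPK1 and lower in oeSRPK1 than in NT. For the glucose carriers, the share of SLC2A3 was 10.7% and 10.3% for NT, 12.2% and 19.3% for shSRPK1 and 7.27% and 7.38% for oeSRPK1, and the groups did not overlap. PFKFB4 gave 28.5% and 38.9% for NT, 36.3% and 25.4% for shSRPK1 and 55.4% and 47.6% for oeSRPK1 of its sum with PFKFB3, with both oeSRPK1 libraries highest. Among the phosphofructokinases, PFKP gave 47.3% and 48.7% for NT, 60.7% and 55.6% for shSRPK1 and 62.7% and 62.6% for oeSRPK1. ALDOA and ENO1 kept at least 99.8% and 81.1% of their families in every library. Of the alpha subunits, EPAS1 held 33.8% and 31.0% for NT, 32.5% and 41.7% for shSRPK1 and 44.8% and 44.4% for oeSRPK1.

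**Figure D5:**
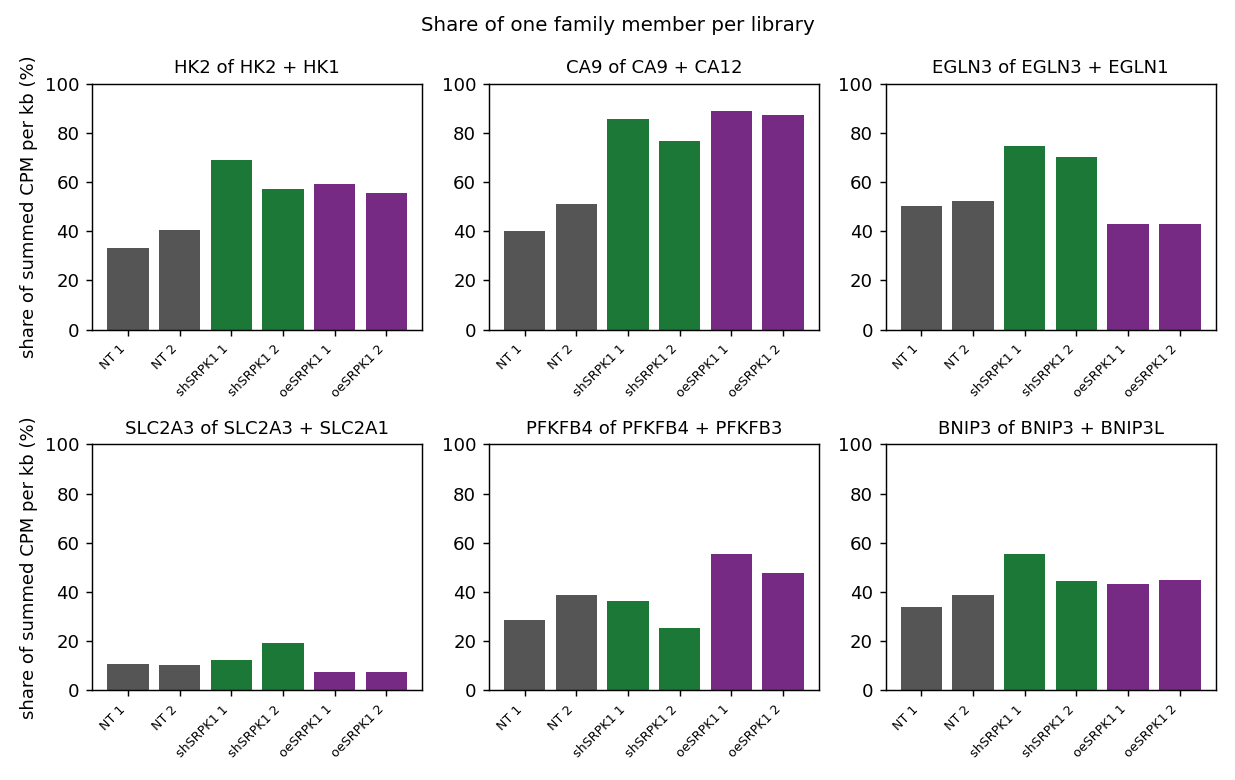
Share of one family member in the summed normalised CPM per kb of 2 family members, in percent, for each of the 6 libraries (grey NT, green shSRPK1, purple oeSRPK1). HK2 and CA9 hold a larger share in all transfected libraries than in NT, and EGLN3 a larger share in shSRPK1 than in oeSRPK1.

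Further HIF-regulated genes outside the 46 were read from a list of 38. Of these, 12 rose and 1 fell in shSRPK1 (median 0.75), 17 rose and 0 fell in oeSRPK1 (median 0.76), and 6 were higher and 3 lower in oeSRPK1 than in shSRPK1 (median 0.02), against the shares of all genes given above. In shSRPK1 those with the smallest adjusted p were the cyclin CCNG2 (1.09 ± 0.14), SPAG4 (0.98 ± 0.15), the demethylase KDM5B (0.66 ± 0.12) and, as the 1 fall, the transferrin receptor TFRC (-0.87 ± 0.14), with edgeR adjusted p = 0.00772, 0.0130, 0.0202 and 0.0139. Among those that rose in oeSRPK1 were TMEM45A (1.76 ± 0.20), the angiogenic factor VEGFA (1.39 ± 0.18) and SPAG4 (1.20 ± 0.16), with edgeR adjusted p = 0.00191, 0.00246 and 0.00276. VEGFA had 371 and 465 CPM for NT, 716 and 609.6 for shSRPK1 and 1204 and 989 for oeSRPK1, with no overlap between the groups.

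Of 18 tested genes of oxygen sensing and HIF partners, 1 rose and 1 fell in shSRPK1, and 2 rose in oeSRPK1. Of all tested genes, 5.43% rose and 3.75% fell in shSRPK1 and 11.2% rose and 9.45% fell in oeSRPK1, so the counts of this list that rose are near the shares of all genes. CITED2, a HIF-induced competitor for HIF coactivators, rose in both (0.90 ± 0.14 and 0.69 ± 0.14, edgeR adjusted p = 0.0118 and 0.0131), ARNT2, a brain-expressed HIF partner, fell in shSRPK1 (-0.73 ± 0.16, adjusted p = 0.0300) and the coactivator EP300 rose in oeSRPK1 (0.66 ± 0.13, adjusted p = 0.0134). Between the transfected groups, the deubiquitinase USP20 was lower (-0.52 ± 0.12) and EP300 higher (0.47 ± 0.13) in oeSRPK1 (edgeR adjusted p = 0.0233 and 0.0409). VHL had 71.2 and 82.7 CPM for NT, 53.6 and 65.1 for shSRPK1 and 64.2 and 68.2 for oeSRPK1, without a call.

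Of 26 tested isoenzymes and carriers of glucose use outside the 46, 2 rose and 2 fell in shSRPK1 (median -0.07), 2 rose and 5 fell in oeSRPK1 (median -0.01), and 2 were higher and 4 lower in oeSRPK1 than in shSRPK1. These counts stand beside 5.43% rising and 3.75% falling of all tested genes in shSRPK1, 11.2% and 9.45% in oeSRPK1, and 11.5% higher and 11.3% lower between the transfected groups. The dehydrogenase GPD1L fell in shSRPK1 (-1.09 ± 0.16, edgeR adjusted p = 0.0107), as did the lactate carrier SLC16A7 (-0.56 ± 0.13, 0.0350), while BSG, the chaperone of the lactate carriers (0.72 ± 0.14, 0.0251), and the glucose carrier SLC2A12 rose (1.02 ± 0.26, 0.0474). In oeSRPK1, LDHB, the lactate dehydrogenase subunit suited to lactate use, fell (-0.88 ± 0.15, edgeR adjusted p = 0.00744), with 426 and 387 CPM for NT, 306 and 259 for shSRPK1 and 199 and 243 for oeSRPK1. SLC16A7 and BPGM also fell there (-0.77 ± 0.13 and -0.65 ± 0.16, edgeR adjusted p = 0.00733 and 0.0264). PYGM, the muscle glycogen phosphorylase, was called higher in oeSRPK1 than in both other groups (edgeR adjusted p = 0.0262 and 0.0370). It had 0.194 and 0.141 CPM for NT, 0.227 and 0.478 for shSRPK1 and 1.75 and 9.56 for oeSRPK1, which in NT is under the floor of 3 counts per library, so no fold is given. PYGM is itself one of the muscle markers, whose part in it was not tested. ENO3, the muscle enolase, was also highest in oeSRPK1 2, with 4.27 and 5.16 CPM for NT, 9.82 and 7.75 for shSRPK1 and 8.59 and 41.4 for oeSRPK1. In oeSRPK1 over shSRPK1, the brain-type glycogen phosphorylase PYGB was higher (1.49 ± 0.23, edgeR adjusted p = 0.00612) and SLC2A12 and the hexose kinase ADPGK were lower (-1.49 ± 0.28 and -0.36 ± 0.10, edgeR adjusted p = 0.00992 and 0.0449).

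Among 15 genes of pyruvate entry into mitochondria, 1 fell in shSRPK1, where 3.75% of all tested genes fell, and 1 rose and 4 fell in oeSRPK1, where 11.2% rose and 9.45% fell. PDP1, the phosphatase that reactivates pyruvate dehydrogenase against the PDK kinases, had 73.0 and 82.8 CPM for NT, 71.2 and 66.9 for shSRPK1 and 254 and 218 for oeSRPK1. It rose in oeSRPK1 (1.60 ± 0.13, edgeR adjusted p = 0.000461) and was higher there than in shSRPK1 (1.77 ± 0.13, adjusted p = 0.000649). PDK4, a further pyruvate dehydrogenase kinase, fell in both groups (-1.10 ± 0.20 and -1.28 ± 0.21, edgeR adjusted p = 0.0201 and 0.00667), and PDK2 and citrate synthase (CS) fell in oeSRPK1 (-0.66 ± 0.15 and -0.56 ± 0.14, adjusted p = 0.0199 and 0.0250). Pyruvate carboxylase (PC) and CS were lower in oeSRPK1 than in shSRPK1 (-1.14 ± 0.19 and -0.56 ± 0.14, edgeR adjusted p = 0.00693 and 0.0239).

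TXNIP and ARRDC4, which the glucose sensor MondoA switches on when glucose phosphate is plentiful and which restrain glucose uptake, separated the shSRPK1 libraries in the opposite order to the glucose carriers. TXNIP had 2595 and 2753 CPM for NT, 839.8 and 4078 for shSRPK1 and 1383 and 1331 for oeSRPK1. ARRDC4 had 118 and 111 CPM for NT, 32.2 and 159 for shSRPK1 and 41.0 and 39.8 for oeSRPK1. For both, shSRPK1 1 was the lowest and shSRPK1 2 the highest of the 6 libraries, and both oeSRPK1 libraries lay below NT. Neither was called (edgeR adjusted p for TXNIP 0.929 in shSRPK1 and 0.381 in oeSRPK1, for ARRDC4 0.844 and 0.237).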

How the data were processed

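Poly(A) RNA of 6 T98G libraries (NT, shSRPK1 and oeSRPK1, 2 each) was sequenced. The authors deposited raw read counts per gene for each library, unnormalised. Per the submitters' processing notes, FastQC, Trimmomatic and STAR 2.5.3 were used with hg38. The counting tool, annotation release and strand setting are not given in the sources used here. Rows that name no gene were left out of library sizes. They held 8.13% to 11.1% of the reads as no feature, 3.04% to 3.37% as ambiguous and 11.95% to 13.1% as not unique.

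Counts were filtered with filterByExpr (minimum count 10, minimum total 15), which kept 14732 genes with 99.8% of the gene reads, scaled by TMM and tested with edgeR 4.0.16 in R 4.3.3 (robust quasi-likelihood fit of all 6 libraries, common BCV 14.5%, Benjamini-Hochberg adjustment over all tested genes). The 3 contrasts were shSRPK1 and oeSRPK1 against NT and oeSRPK1 against shSRPK1. SE values and 95% intervals come from that fit. Gene reads per library (3891549 to 22691215) set the precision, and 3 counts stood for 0.135 to 0.776 normalised CPM. The scripts were tested on simulated data. Symbols came from a gene-name table (56321 ids) and GENCODE 29 (432 ids), 3730 ids had none, and exonic lengths came from GENCODE 29. Promoter sequences were taken from RefSeq windows (GRCh38.p14). The members and all lists were chosen with earlier results of these data known. Every member called in any contrast is named, with at most 4 called genes per other list and contrast, smallest adjusted p first. TXNIP, ARRDC4, VHL and ENO3 were named after their values were seen. Alternatives were DESeq2 1.42.0 and its size factors, limma 3.58.1 voom with a spread per group, upper-quartile scaling, no or a stricter filter, only the compared libraries, a replicate block, and each library left out. Protein sequences were not used here. The values of 1 gene on the list of further HIF-regulated genes are not reported here, although the counts over that list include it.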

Additional observations from a re-analysis of the deposited data

Results flagged for a closer look

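VLDLR and MXI1 had values of opposite sign in the transfected groups relative to NT, with oeSRPK1 higher and shSRPK1 lower, and the difference between those groups passed edgeR's test. For VLDLR, oeSRPK1 minus shSRPK1 was 1.34 on the log2 scale (edgeR adjusted p = 0.00176), both oeSRPK1 libraries were above the 4 others, and the value in shSRPK1 against NT (-0.24) was not called. For MXI1 it was 0.90 (edgeR adjusted p = 0.00373), with both oeSRPK1 libraries again above the 4 others, and -0.22 in shSRPK1 against NT was not called. PFKL had opposite signs in the other direction, 0.20 in shSRPK1 and -0.40 in oeSRPK1 against NT, neither called. Its difference between the transfected groups was -0.59 (edgeR adjusted p = 0.0221).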

How the results depend on the processing

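The replicate numbers were not shown to pair libraries: deviations from the group means of same-numbered libraries correlated at 0.0104, -0.0186, 0.0235 between groups, and the replicate block brought the members called higher in shSRPK1 from 11 to 8, and in oeSRPK1 from 14 to 11. Settings other than leaving out a library are given below only where a count moved over 1.5-fold, or to or from 0. Smaller moves of the HIF-regulated calls higher included 8 to 12 in shSRPK1 with no filter and with DESeq2. They also included 8 to 6 in shSRPK1 with the replicate block, and 9 to 13 in oeSRPK1 with no filter. For shSRPK1 over NT, the counts moved as follows. Glycolytic calls higher (3) came to 11 with no filter on low counts and with DESeq2, 8 with limma-voom and a spread per group, 0 with only the compared libraries and 0 to 21 when 1 library was left out. Glycolytic calls lower (0) came to 1 with no filter on low counts and 0 to 1 when 1 library was left out. HIF-regulated calls higher (8) came to 1 with only the compared libraries and 0 to 17 when 1 library was left out. HIF-regulated calls lower (1) came to 0 with only the compared libraries and with the replicate block and 0 to 2 when 1 library was left out. Calls over all genes (1352) came to 2616 with no filter on low counts, 129 with only the compared libraries and 29 to 4595 when 1 library was left out. With no filter, 5.4% of the genes then tested were called higher in shSRPK1 and 3.77% lower. These shares were 5.43% and 3.75% in the main fit, so the count over all genes grew while its share held. For oeSRPK1 over NT the counts also moved. Glycolytic calls higher (5) came to 3 with upper-quartile scaling and with the replicate block, 14 with limma-voom and a spread per group, 16 with only the compared libraries and 0 to 16 when 1 library was left out. Glycolytic calls lower (1) came to 2 with no filter on low counts and with limma-voom and a spread per group, 3 with only the compared libraries and 0 to 3 when 1 library was left out. HIF-regulated calls higher (9) came to 17 with limma-voom and a spread per group, 18 with only the compared libraries and 0 to 18 when 1 library was left out. Calls over all genes (3036) came to 6287 with limma-voom and a spread per group, 6331 with only the compared libraries and 293 to 6415 when 1 library was left out. For oeSRPK1 over shSRPK1 they moved too. Glycolytic calls higher (0) came to 1 with no filter on low counts and 0 to 5 when 1 library was left out. Glycolytic calls lower (2) came to 6 with no filter on low counts, 0 with only the compared libraries and 0 to 18 when 1 library was left out. HIF-regulated calls higher (3) came to 1 to 9 when 1 library was left out. HIF-regulated calls lower (5) came to 3 with limma-voom and a spread per group and with only the compared libraries and 0 to 12 when 1 library was left out. Calls over all genes (3361) came to 1505 with only the compared libraries and 144 to 6152 when 1 library was left out. Log2 fold changes that changed sign with a call in either fit did so when 1 library was left out. ANGPTL4 ranged from -0.70 to 2.12 for shSRPK1 over NT, changing sign without shSRPK1 1. EPAS1 ranged from -0.42 to 0.63 for shSRPK1 over NT, changing sign without shSRPK1 2. SLC2A1 ranged from -0.35 to 1.24 for oeSRPK1 over shSRPK1, changing sign without shSRPK1 2. SLC16A3 ranged from -0.45 to 0.47 for oeSRPK1 over shSRPK1, changing sign without shSRPK1 1. PKM ranged from -0.74 to 0.36 for oeSRPK1 over shSRPK1, changing sign without shSRPK1 1. ANGPTL4 ranged from -0.68 to 2.16 for oeSRPK1 over shSRPK1, changing sign without shSRPK1 2. P4HA2 ranged from -0.31 to 0.46 for oeSRPK1 over shSRPK1, changing sign without shSRPK1 2. EGLN1 ranged from -0.43 to 0.57 for oeSRPK1 over shSRPK1, changing sign without shSRPK1 2. EPAS1 ranged from -0.51 to 0.54 for oeSRPK1 over shSRPK1, changing sign without shSRPK1 2. The cause of these moves was not tested. A library left alone in its group was assumed to vary like the others. With 2 libraries per group and few reads, ANKRD37 and ALDOC were limited most by depth. ANKRD37 and ALDOC had no value under the filter of 5 CPM in 2 libraries, which removed them. Counts are edgeR's unless another tool is named.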

Other observations

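Sorted by calls, CA9, P4HA1, PGK1, PLOD1 and SLC2A3 rose in both transfected groups, which were compared with the same NT libraries. The shSRPK1 calls of CA9 and of PGK1 were each kept in 4 of the 8 alternatives that left out no single library. ADM, BHLHE40 and PLOD2 rose in shSRPK1 and were lower in oeSRPK1 than there. BNIP3L, MXI1 and VLDLR rose in oeSRPK1 and were lower in shSRPK1 than there. A further 20 members were called in none of the 3 comparisons, among them SLC2A1, HK2, GAPDH and NDRG1. The shares of all tested genes with these patterns are not given here. GAPDH, often used as a reference gene, ranged from 5438 CPM in NT 1 to 12549 CPM in shSRPK1 1.

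Of the muscle transcripts, MYH7, a heavy chain of slow muscle myosin, had 0 and 0 CPM for NT, 0 and 5.83 for shSRPK1 and 108 and 1268 for oeSRPK1. ACTA1, skeletal muscle actin, had 0.0971 and 0.141 CPM for NT, 0.0755 and 3.54 for shSRPK1 and 74.0 and 897 for oeSRPK1. Both were far higher in oeSRPK1 2 than in oeSRPK1 1. SOX9, a glial transcription factor, had 86.8 and 91.7 CPM for NT, 131 and 147 for shSRPK1 and 265 and 244 for oeSRPK1, and rose in both transfected groups (0.64 ± 0.12 and 1.51 ± 0.12, edgeR adjusted p = 0.0210 and 0.000454).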
